A study of Arabidopsis thaliana with 12 samples.

Results

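UGT78D1 and UGT78D2 are the 2 genes described here, of 13356 genes that the array annotation names singly, and they were chosen by name from the annotation. UGT78D1 (AT1G30530, chromosome 1) and UGT78D2 (AT5G17050, chromosome 5) each have 1 probe set annotated to them alone, so the brightest probe set of each gene is also its only one. Both are Arabidopsis thaliana genes, measured in rosettes on 12 Affymetrix arrays in a factorial study that asked how light bears on the response to wounding. The 4 groups, with 3 arrays each, were rosettes wounded in the light, intact rosettes in the light, rosettes wounded in the dark and intact rosettes in the dark. Light was given at 250 µmol m-2 s-1. Plants of all groups spent 30 min in their light or dark cabinet at 22 °C, then had their leaves crushed with a metal haemostat or were left alone, and were harvested 60 min later. Wounding in the dark was done under a safelight, and for wounded rosettes in the dark of experiment 2 the treatment text is a bare abbreviation, so that array was placed by its title. The 30 min and the 22 °C are not stated for that array. Each array carried 1 RNA extract pooled from 15 to 17 plants, and every 1 of the 3 replicate experiments held all 4 treatments. Genotype and ecotype are not given in the sources used here. In these bulk extracts fewer cells of a type and less RNA per cell cannot be told apart.

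Flavonols are phenolic pigments of leaves that absorb ultraviolet light and scavenge oxygen radicals, and the cell stores them as glycosides. UGT78D1 and UGT78D2 act at the first step of that decoration, at the 3-hydroxyl group of the flavonol: UGT78D1 adds rhamnose, and UGT78D2 adds glucose to flavonols and also to anthocyanidins. Both belong to the UGT family, which transfers sugars from UDP-sugars to small molecules. The genes of flavonol synthesis are known targets of light signalling through the bZIP factors HY5 and HYH and of MYB factors.

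The values are the submitters' GCRMA values on the log2 scale, where a step of 1 is a doubling, and precision is limited by how few arrays there are. Testing covered the 13567 of 22810 probe sets with a log2 value of 4 or more on at least 3 arrays, both genes among them. A change is the difference between 2 group means of 3 arrays, given with its SE from limma, and a gene is called when its adjusted p (Benjamini-Hochberg over all tested probe sets, two-sided) is under 0.05. Array medians lay between 5.40 and 5.60. Of 8 rosette leaf markers 3 had a named probe set, and these, RCA, LHCB4.2 and PSAE-1, stood between 14.19 and 15.25 on all arrays. Of 8 root markers 2 had one, with EXPA7 at most at 1.88 and PYK10 between 6.70 and 9.39, and the 6 flower markers had none.

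Both glycosyltransferase transcripts stood higher in light than in darkness whether or not rosettes were wounded. Neither gene passed the test for wounding in the planned fit, whereas with the replicate experiment as a block UGT78D1 passed as lower in wounded rosettes in the light (limma adjusted p = 0.0490). UGT78D1, the rhamnosyltransferase gene, was 3.93-fold higher under light in intact rosettes and 2.84-fold higher in wounded ones. UGT78D2, the glucosyltransferase gene, was 2.88-fold and 2.38-fold higher in the same comparisons. Since plants were not sampled before they entered the cabinets, an increase under light and a decrease in darkness cannot be told apart.

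**Figure D1:**
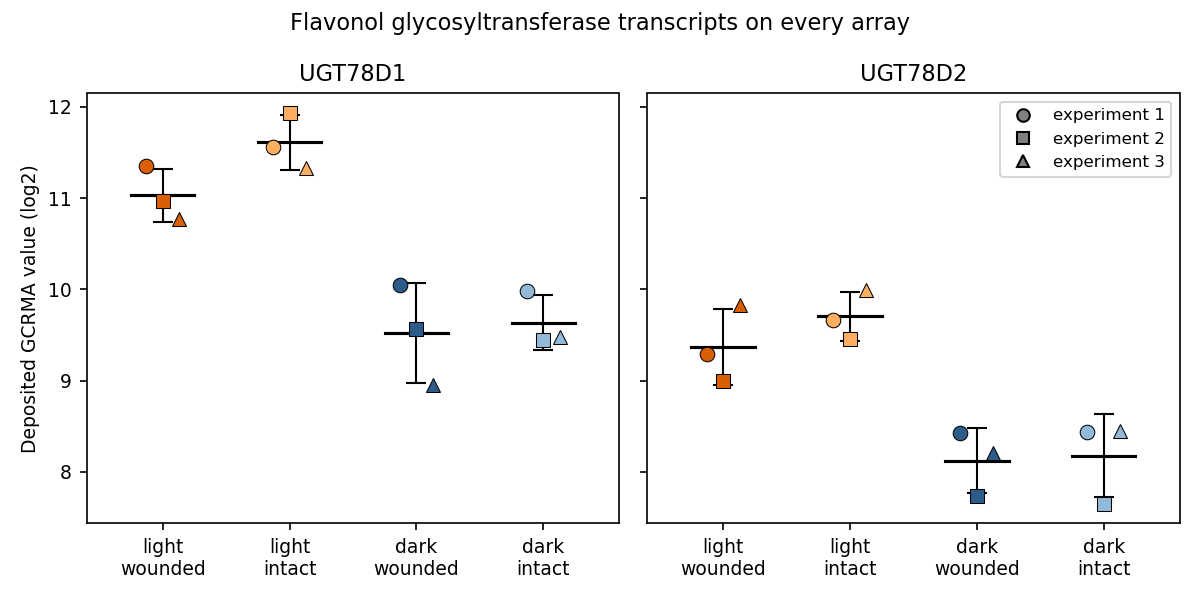
Deposited log2 values (vertical axis) of UGT78D1 (left) and UGT78D2 (right) on all 12 arrays, by group, with the symbol giving the experiment, the long line the group mean and the bars the SD (n = 3). For both genes all 6 light arrays lie above all 6 dark arrays, while wounded and intact arrays overlap within the light and within the dark.

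In intact rosettes UGT78D1 had log2 values of 11.56, 11.93 and 11.33 in the light, against 9.98, 9.45 and 9.47 in the dark (experiments 1, 2 and 3). The lowest light array stood above the highest dark array, and the groups did not overlap. The group means were 11.61 ± 0.30 in the light and 9.64 ± 0.30 in the dark (SD, n = 3 each), a change of 1.97 ± 0.28 with a 95% interval of 1.36 to 2.59 and a limma adjusted p of 7.17e-04. UGT78D2 had 9.67, 9.45 and 9.99 in intact rosettes in the light, against 8.43, 7.65 and 8.45 in the dark. These arrays did not overlap either. The means were 9.70 ± 0.27 in the light and 8.18 ± 0.46 in the dark (SD, n = 3 each), and the change was 1.52 ± 0.28 with a 95% interval of 0.90 to 2.15 (limma adjusted p = 0.00335).

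Both genes were thus called in intact rosettes, where 23.2% of all tested probe sets were called for light (12.3% higher and 10.9% lower, and 40.7% in all with the replicate experiment as a block) and the light and dark arrays were separate for 38.2%. With the arrays centred on their medians 1270 probe sets were higher and 1684 lower, against 1670 higher and 1477 lower as deposited. The change of UGT78D1 exceeded that of 98.9% of the tested probe sets and the change of UGT78D2 that of 97.6%. A 25S ribosomal RNA control on the array differed between the same groups. It stood at 7.27 ± 0.33 in intact rosettes in the light and at 9.62 ± 0.95 in the dark (SD, n = 3 each). With its value as a covariate the change of UGT78D2 was 0.98 ± 0.42 and no longer passed (limma adjusted p = 0.207), whereas UGT78D1 changed by 2.23 and passed (limma adjusted p = 0.0216).

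In wounded rosettes UGT78D1 had 11.35, 10.97 and 10.78 in the light, against 10.05, 9.57 and 8.95 in the dark. Every light array was again above every dark array. The means were 11.03 ± 0.29 in the light and 9.52 ± 0.55 in the dark (SD, n = 3 each), with a change of 1.51 ± 0.28, a 95% interval of 0.89 to 2.12 and a limma adjusted p of 0.00556. UGT78D2 had 9.29, 8.99 and 9.82 in wounded rosettes in the light, against 8.43, 7.73 and 8.20 in the dark. The groups were separate here too. Its means were 9.37 ± 0.42 in the light and 8.12 ± 0.36 in the dark (SD, n = 3 each), and the change was 1.25 ± 0.28 with a 95% interval of 0.63 to 1.87 (limma adjusted p = 0.0153).

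Both were called here too, among 12.3% of all tested probe sets (4.86% higher and 7.42% lower, and 28.9% in all with the block), and light and dark arrays were separate for 33.5%. The 25S ribosomal RNA control stood at 7.36 ± 1.06 in wounded rosettes in the light and at 7.57 ± 0.77 in the dark (SD, n = 3 each), and with it as a covariate both genes passed (limma adjusted p = 0.00829 for UGT78D1 and 0.0170 for UGT78D2). The call of UGT78D2 was lost without dark wounded replicate 2 (change 1.05, limma adjusted p = 0.0694) or without light wounded replicate 3 (1.02, limma adjusted p = 0.0594). That of UGT78D1 passed without any single array, with changes of 1.22 to 1.77.

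**Figure D2:**
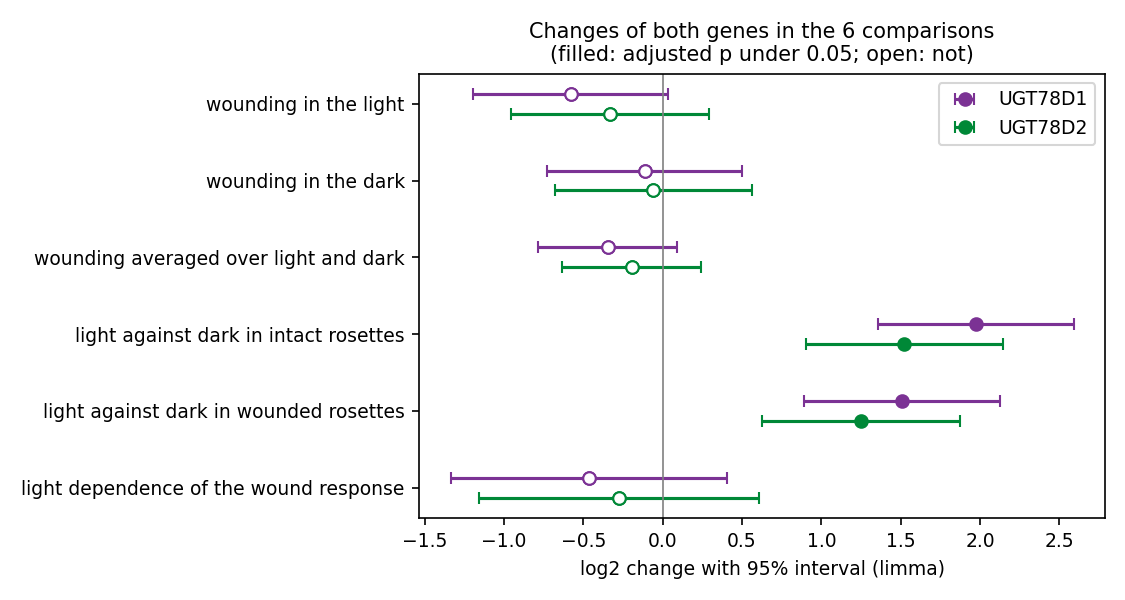
Changes of UGT78D1 and UGT78D2 on the log2 scale (horizontal axis) with their 95% limma intervals in the 6 comparisons, filled where the adjusted p is under 0.05 and open where it is not. Both light comparisons are filled for both genes, with changes of 1.25 to 1.97, and all wound comparisons and the light dependence of the wound response are open with intervals that include 0.

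Without the block, neither transcript had a called wound change at 60 min. In the light UGT78D1 averaged 11.03 ± 0.29 in wounded and 11.61 ± 0.30 in intact rosettes (SD, n = 3 each), and its lower value was found in each experiment, with differences of -0.22, -0.97 and -0.56. The wounded and intact arrays overlapped through experiment 1, where the wounded array stood just above the intact array of experiment 3. The change of -0.58 ± 0.28 had a 95% interval of -1.20 to 0.03 (limma adjusted p = 0.210), and with the replicate experiment as a block it became -0.58 ± 0.19 with a limma adjusted p of 0.0490. This passed narrowly, and was not kept once array medians were equalised as well (-0.52, limma adjusted p = 0.0795).

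UGT78D2 averaged 9.37 ± 0.42 in wounded and 9.70 ± 0.27 in intact rosettes in the light (SD, n = 3 each), with differences of -0.38, -0.46 and -0.17 by experiment. All 3 experiments had the lower value in wounded rosettes, while the change of -0.33 ± 0.28 did not pass (95% interval -0.96 to 0.29, limma adjusted p = 0.489), nor did it with the block (limma adjusted p = 0.134). For comparison, 14.9% of the tested probe sets were called for wounding in the light (8.48% higher and 6.37% lower), and 27.3% with the block. The wounded and intact groups did not overlap for 37.0%, whereas both genes had overlapping groups.

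In the dark UGT78D1 averaged 9.52 ± 0.55 in wounded and 9.64 ± 0.30 in intact rosettes (SD, n = 3 each), with differences of 0.06, 0.12 and -0.53 by experiment. Those of UGT78D2 were -0.00, 0.08 and -0.25, around means of 8.12 ± 0.36 in wounded and 8.18 ± 0.46 in intact rosettes (SD, n = 3 each). Experiment 3 had the lowest difference of both genes, and the signs differed between experiments. The changes were -0.11 ± 0.28 (95% interval -0.73 to 0.50) and -0.06 ± 0.28 (-0.68 to 0.56), neither called (limma adjusted p = 0.901 and 0.956), where 8.12% of all tested probe sets were called (5.84% higher and 2.28% lower, and 15.1% in all with the block) and the arrays of 21.4% were separate, those of the 2 genes not being among them. Averaged over light and dark, the wound change was -0.35 ± 0.20 for UGT78D1 and -0.20 ± 0.20 for UGT78D2, and neither passed (limma adjusted p = 0.244 and 0.528), where 21.6% of the tested probe sets did (10.9% higher and 10.7% lower), and 36.2% with the block.

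The wound change in the light was not shown to differ from that in the dark for either gene. The difference between the wound changes, light minus dark, was -0.47 ± 0.40 for UGT78D1 (95% interval -1.34 to 0.40) and -0.28 ± 0.40 for UGT78D2 (-1.16 to 0.61), with unadjusted p of 0.264 and 0.506 and a limma adjusted p of 0.999 for both. Over all tested probe sets 0.0147% passed this test, and 0.0369% with the block.

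For both genes the order of the 4 group means ran from intact in the light through wounded in the light and intact in the dark to wounded in the dark. Neighbours in that order within the light and within the dark had overlapping arrays and did not pass in the planned fit. With the block UGT78D1 passed as lower in wounded rosettes in the light (limma adjusted p = 0.0490). Between the light and the dark groups lay a gap. The lowest array of wounded rosettes in the light stood at 10.78 and the highest of intact rosettes in the dark at 9.98 for UGT78D1, and the corresponding arrays of UGT78D2 stood at 8.99 and 8.45. For UGT78D1 the highest of all dark arrays was one of wounded rosettes, at 10.05. The pair of wounded rosettes in the light and intact rosettes in the dark differs in both factors and was not tested.

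Set against each other within each array, UGT78D1 changed more with light than UGT78D2 in 6 of 6 pairs of light and dark arrays from the same experiment. The light change of UGT78D1 minus that of UGT78D2 was 0.35, 0.68 and 0.32 in intact rosettes and 0.44, 0.13 and 0.21 in wounded rosettes (experiments 1, 2 and 3). The mean difference was 0.36. An exact permutation test, two-sided, with light and dark labels exchanged freely within wounded and within intact arrays did not pass (p = 0.25, 400 permutations). When labels were exchanged only between arrays of the same experiment, an exact permutation test, two-sided, gave p = 0.03125, the smallest that 6 separate pairs allow. That test took the intact and the wounded pair of an experiment as independent, although only 3 experiments were done. The wound change of UGT78D1 was below that of UGT78D2 in 3 of 6 pairs, with a mean difference of -0.15 (exact permutation test, two-sided, p = 0.595).

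The experiments moved the 2 transcripts differently. UGT78D2 was lowest in experiment 2 in all 4 groups and averaged 8.96, 8.46 and 9.12 over the groups of experiments 1, 2 and 3. UGT78D1 was lowest in experiment 3 in 3 of the 4 groups and averaged 10.74, 10.48 and 10.13. After removal of the group means the 2 genes had a Pearson r of -0.03 over the 12 arrays, against 0.86 before it, as a description of arrays that share experiments and fall into a light and a dark cluster.

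The closest relatives on the array were dim on every array. UGT78D3, which adds arabinose to flavonols, and AT5G17040 are the coding genes next to UGT78D2 on chromosome 5, in the order UGT78D3, AT5G17040, UGT78D2. UGT78D3 lay between 3.32 and 3.69 over all 12 arrays and AT5G17040 between 2.80 and 3.33. Both stayed under the log2 value of 4 throughout and were not tested.

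The remaining genes of flavonol and anthocyanin decoration and transport were read from a list of 26 loci, of which 12 had a single-gene probe set and 6 were tested, the 2 glycosyltransferases included. In intact rosettes 5 of these 6 were higher in the light and none was lower, where 12.3% of all tested probe sets were higher, with a median change of 2.00 (0.07 over all tested probe sets). Without the 2 glycosyltransferases it was 3 of 4. Both counts include UF3GT, which reached the log2 value of 4 only on light arrays. It entered the test through the groups where it was high, so these counts and the share are not an even comparison. In wounded rosettes 3 of the 6 were called higher, where 4.86% of all tested probe sets were (median 1.14, against 0.01 over all of them), and without the 2 glycosyltransferases 1 of 4. With the replicate block 5 of the 6 were higher, UF3GT among them, where 1926 of the 13567 tested probe sets were higher. In either direction 28.9% were called. For wounding in the light 1 of the 6 was called higher and 1 lower (8.48% and 6.37% over all tested probe sets), and in the dark 1 was called higher (5.84%). The gene called higher was BGLU15 in both, which entered the test through the wounded groups, so its calls do not compare evenly with these shares. With the block 1 of the 6 was higher and 3 lower for wounding in the light, UGT78D1 among the 3. Of the 13567 tested probe sets 1560 were higher and 2139 lower in that fit. For wounding in the dark 2 of the 6 were higher with the block, where 1232 of all tested probe sets were. With the 25S ribosomal RNA covariate 3 of the 6 were called higher in intact rosettes, where 375 of the 13567 tested probe sets were. The other 6 probe sets of the list, those of UGT78D3, AT5G17040, AT2G22590, AT5G54010 (UGT79B6), AT5MAT and UGT84A1, never reached the log2 value of 4.

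AT1G06000, which the annotation gives by its locus alone, had the largest light change of the list. It stood at 10.61, 10.47 and 10.45 in intact rosettes in the light, against 7.64, 6.38 and 7.29 in the dark. The change was 3.41 ± 0.32, or 10.6-fold (limma adjusted p = 6.07e-05), and in wounded rosettes it was 2.70 ± 0.32 (limma adjusted p = 5.36e-04). All light arrays of this gene lay within 10.45 to 10.72, wounded or not. In the dark its wounded rosettes had 8.53, 7.36 and 7.81, each above the intact array of the same experiment. The group means were 7.90 ± 0.59 in wounded and 7.10 ± 0.65 in intact rosettes in the dark (SD, n = 3 each), with overlapping arrays. That wound change did not pass without the block and did with it.

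AT4G14090, also annotated by locus only, had 7.43, 7.52 and 6.76 in intact rosettes in the light, against 5.69, 5.18 and 4.78 in the dark (change 2.02 ± 0.30, limma adjusted p = 9.95e-04). Its wounded rosettes in the light had 5.92, 6.14 and 5.33, below all intact ones. Wounding lowered it in the light by a change of -1.44 ± 0.30 (limma adjusted p = 0.00794), and its light change in wounded rosettes, 0.72 ± 0.30, did not pass without the block (limma adjusted p = 0.153) and did with it (limma adjusted p = 0.0186). Without the block UGT78D1 and UGT78D2 had no called wound change in the same arrays, a contrast between genes that was not tested.

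UF3GT (UGT79B1), which extends the sugar chain of anthocyanins with xylose, had 6.42, 5.38 and 5.17 in intact rosettes in the light, against 3.97, 3.46 and 2.82 in the dark (change 2.24 ± 0.48, limma adjusted p = 0.00702). It reached a log2 value of 4 on 5 arrays, all from the light, so it entered the test through the groups where it was high. BGLU15, a beta-glucosidase that hydrolyses flavonol glycosides, was the exception of the list. It did not pass for light (-0.11 ± 0.46 in intact rosettes, limma adjusted p = 0.884) and rose with wounding, by 1.58 ± 0.46 in the light and 1.88 ± 0.46 in the dark (limma adjusted p = 0.0411 and 0.0288). Its 6 wounded arrays lay between 4.15 and 5.49 and its 6 intact arrays between 2.18 and 3.99, so it entered through the wounded groups. Both wound calls were lost with the 25S covariate, and without single arrays such as dark wounded replicate 1 (limma adjusted p = 0.0562 in the light and 0.0814 in the dark without it).

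**Figure D3:**
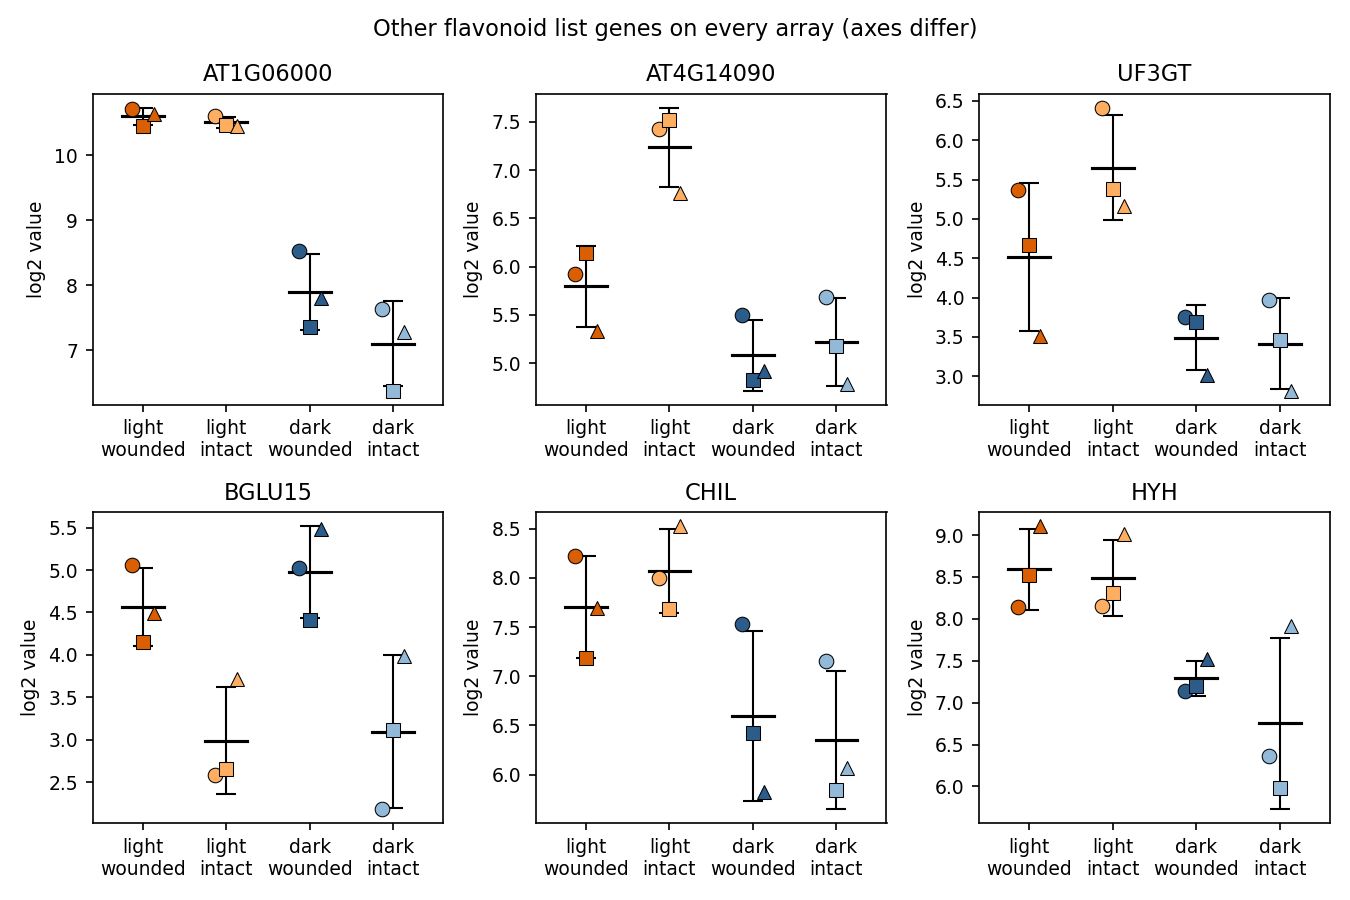
Deposited log2 values (vertical axes, which differ in range) of the 4 other tested genes of the decoration list, of CHIL and of HYH on the 12 arrays by group, with symbols for experiments 1 (circle), 2 (square) and 3 (triangle), group means and SD (n = 3). AT1G06000 stands at 10.45 or higher on all light arrays and at 8.53 or lower on all dark arrays, and BGLU15 separates by wounding instead of light.

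Upstream of the glycosyltransferases, 2 of 10 listed core enzymes of flavonoid synthesis were tested. CHIL, a chalcone isomerase-like protein that raises flux into flavonoids, had 8.00, 7.68 and 8.53 in intact rosettes in the light, against 7.15, 5.84 and 6.06 in the dark. It was called higher (1.72 ± 0.46, limma adjusted p = 0.0207), a call that was lost without light intact replicates 1 or 3 or dark intact replicates 2 or 3 (limma adjusted p between 0.0517 and 0.0793) and with the 25S covariate (limma adjusted p = 0.256). In wounded rosettes the light change of CHIL was 1.11 ± 0.46, with overlapping arrays. It did not pass without the block (limma adjusted p = 0.145) and did with it. DFR, an enzyme of the anthocyanin branch, had overlapping groups and a change of 0.06 ± 0.53 in intact rosettes (limma adjusted p = 0.941). That value was -0.013 with the arrays centred on their medians, so no direction can be given. BAN, an enzyme of seed coat tannins, was at most at 1.87. Of 11 genes of phenylpropanoid entry only HCT, an acyltransferase of the lignin branch, could be read, at a light change of 0.41 ± 0.19 in intact and 0.55 ± 0.19 in wounded rosettes (limma adjusted p = 0.145 and 0.0882, and 0.0102 and 0.00392 with the block).

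Of 26 listed regulators of the pathway 1 was tested, HYH. It had 8.15, 8.31 and 9.01 in intact rosettes in the light, against 6.36, 5.98 and 7.91 in the dark, with a change of 1.74 ± 0.44 (limma adjusted p = 0.0156). The light arrays lay above the dark arrays, with dark replicate 3 closest to them. The call was lost without dark intact replicate 2 or light intact replicate 3 (limma adjusted p = 0.0622 and 0.0573) and with the 25S covariate (0.77, limma adjusted p = 0.513). In wounded rosettes it was 2.47-fold higher in the light, which did not pass without the block (limma adjusted p = 0.0780) and passed with it (limma adjusted p = 0.00551).

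Among genes that carry a UGT name as symbol or synonym, 51 had a single-gene probe set and 30 were tested. Loci without such a name are not in this set, among them AT1G06000 and AT4G14090, whose light changes of 3.41 and 2.02 in intact rosettes were larger than that of UGT78D1. In intact rosettes 12 of the 30 were higher in the light and 5 lower, and without the 2 flavonol genes 10 of 28 were higher and 5 lower, with a median change of -0.00. Over all tested probe sets 12.3% were higher and 10.9% lower. By the size of its rise UGT78D1 was number 5 of these 30 and UGT78D2 number 8. In wounded rosettes 4 were higher and 3 lower (4.86% and 7.42% over all tested probe sets), and the 2 flavonol genes were numbers 4 and 5 of the 30. With the block 12 of the 30 were higher and 9 lower in intact rosettes, where 40.7% of all tested probe sets were called. In wounded rosettes the block gave 9 higher and 9 lower, where 28.9% were called. Without the block, the 4 of the 30 called higher in the light in both comparisons were UGT78D1, UGT78D2, GT72B1 and UGT71B1. Of these UGT71B1 was also called for wounding. The share of all tested probe sets called higher in both was not counted, so these 4 are given as a description.

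GT72B1 (UGT72B1), which glucosylates monolignols and chlorinated phenols, was higher in the light by 2.28 ± 0.22 in intact rosettes (11.31 ± 0.33 in the light and 9.03 ± 0.25 in the dark, SD, n = 3 each; limma adjusted p = 6.07e-05). The other named rises in intact rosettes were UGT84A3, which glucosylates hydroxycinnamates (2.59 ± 0.70), UF3GT and UGT76B1 (2.20 ± 0.64, with overlapping groups). UGT73B1 (-2.34 ± 0.45), UGT71B6, an abscisic acid glucosyltransferase (-2.18 ± 0.47), UGT85A2 (-1.09 ± 0.26) and UGT85A4 (-1.06 ± 0.31) were lower in the light. With the 25S covariate UF3GT, UGT76B1 and all 4 named falls lost their calls. The call of UGT84A3 did not hold under all 9 alternatives (highest limma adjusted p = 0.0646). It was also lost without light intact replicates 1 or 2 or dark intact replicate 3 (limma adjusted p between 0.0696 and 0.0784). That of UGT76B1 was lost without light intact replicates 1 or 3 or dark intact replicates 1 or 2 (between 0.0842 and 0.104). UGT85A4 lost its call without light intact replicate 1 or dark intact replicates 2 or 3 (between 0.0751 and 0.115).

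For wounding in the light 4 of the 30 rose and 7 fell, neither flavonol gene among them, where 14.9% of all tested probe sets were called. With the block 7 rose and 14 fell, UGT78D1 among these, where 27.3% were called. The named rises were UGT76E12 (3.66 ± 0.55 in the light and 3.30 ± 0.55 in the dark), UGT71B5 (2.57 ± 0.37 in the light), UGT76E1 (2.43 ± 0.55 in the light) and UGT73B5 (2.15 ± 0.50 in the light and 2.25 ± 0.50 in the dark). UGT76E1, which stayed at or below 2.82 in all intact rosettes, entered the test through the wounded groups, and its call was lost without light wounded replicate 1 (limma adjusted p = 0.0512). UGT73B5 lost its call in the light without light wounded replicates 1 or 2 (limma adjusted p = 0.0513 and 0.0517) and in the dark without dark wounded replicates 2 or 3 (0.0602 and 0.0538) and with the 25S covariate (0.102), and its dark change was 1.48 without dark intact replicate 1. UGT76E12 lost its dark call with the 25S covariate (limma adjusted p = 0.0638). In the dark 2 of the 30 rose and 3 fell (8.12% of all tested probe sets were called), and 5 and 7 with the block (15.1%). None of the 30 was called for the light dependence of the wound response, also with the block. Over all tested probe sets only 0.0147% were called, and 0.0369% with the block, so this is not particular to the family.

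**Figure D4:**
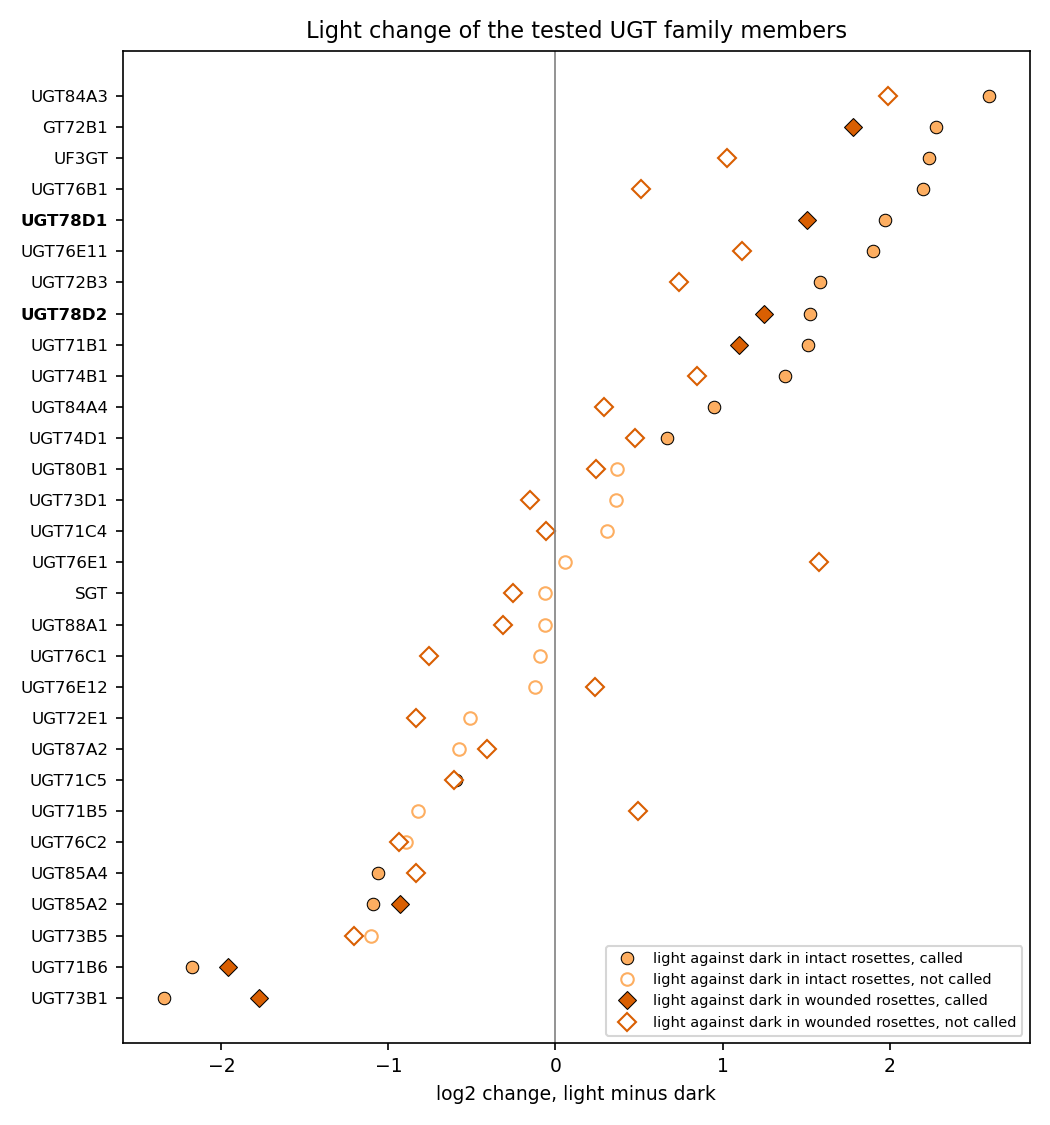
Light minus dark change on the log2 scale (horizontal axis) of the 30 tested UGT family members, sorted by the change in intact rosettes (circles), with that in wounded rosettes as diamonds. Symbols are filled where called in the planned fit, without the block, and open where not. UGT78D1 and UGT78D2, in bold, have both symbols filled on the light side, as do GT72B1 and UGT71B1.

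The genes whose 12 values followed those of UGT78D1 and UGT78D2 most closely were different ones. Likeness was the Pearson correlation of log2 values over the 12 arrays with each of 7274 other tested single-gene probe sets, given as a description because the arrays share experiments and form a light and a dark cluster. Nearest to UGT78D1 were AT2G31790 (r = 0.993), GH9C2, a family 9 glycosyl hydrolase (0.990), AT3G20240 (0.984), AT3G56370 (0.980) and CSLC5, a cellulose synthase-like protein (0.976). Nearest to UGT78D2 were AT4G38100 (0.984), which encodes the thylakoid curvature protein CURT1D, AT3G16560 (0.977), AT3G59910 (0.974), AT1G52770 (0.970) and AT3G15310 (0.964).

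Their light changes ran from 0.68 to 3.01 in intact and from 0.57 to 3.05 in wounded rosettes, as follows from the way they were chosen. AT3G20240 stayed under the log2 value of 4 on all dark arrays and entered the test through the light groups. With the 25S covariate all 5 genes nearest UGT78D2 lost the call for light in intact rosettes (limma adjusted p between 0.151 and 0.251), as UGT78D2 itself did. In wounded rosettes AT3G59910 and CSLC5 lost theirs when those groups were fitted alone (limma adjusted p = 0.0600 and 0.0684) and without single arrays, light wounded replicate 1 and dark wounded replicate 2 for both. With group means removed, r with the flavonol gene lay between 0.84 and 0.96, which the choice by r over the same arrays largely fixes. UGT78D2 came at place 373 among the genes most like UGT78D1, and UGT78D1 at place 285 among those most like UGT78D2. An r over 0.9 was found for 179 genes with UGT78D1 and for 132 with UGT78D2, and 35 were in both, which is 19.6% of the list of 179 and 26.5% of the list of 132.

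**Figure D5:**
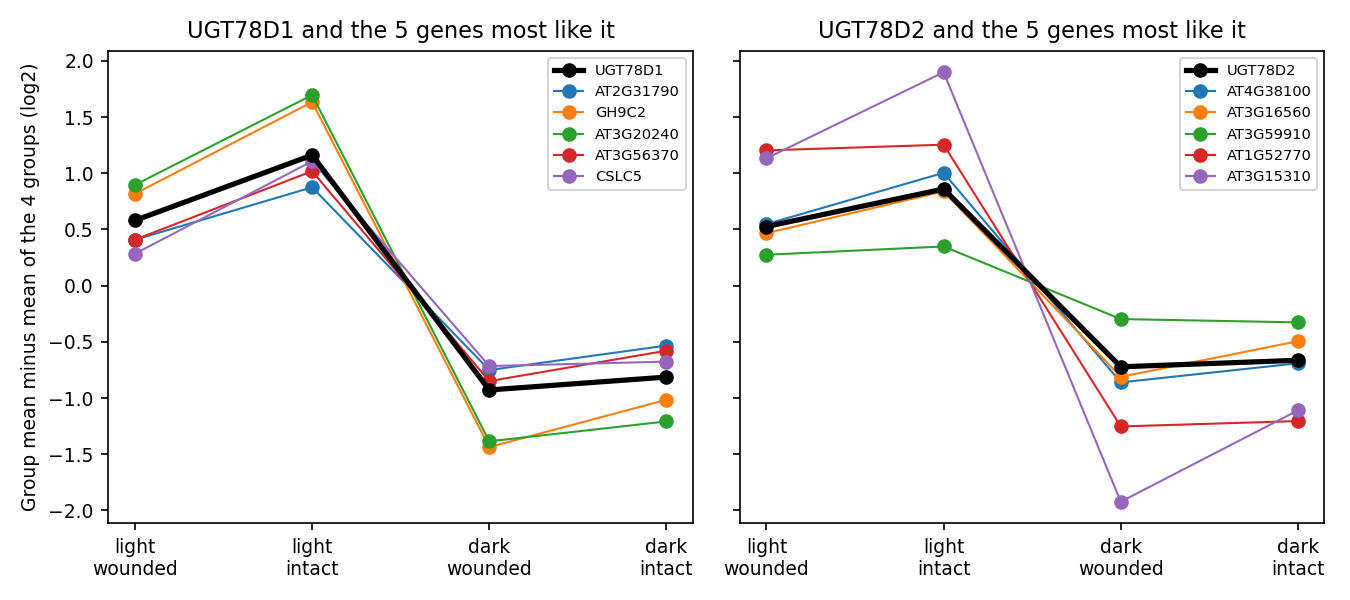
Group means relative to the mean of the 4 groups of each gene (vertical axis, log2) for UGT78D1 (left, thick black) and UGT78D2 (right, thick black) with the 5 genes most like each over 12 arrays. All 12 genes have both light groups above both dark groups, and AT3G15310 has the widest and AT3G59910 the narrowest span.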

How the data were processed

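Transcripts were measured on 12 Affymetrix arrays, 1 per treatment and replicate experiment, grouped by sample title. Per the submitters' processing notes the authors made the values with GCRMA, with no version given, and the deposited values are log2. The table has no detection calls, and depth does not apply to arrays. Genes were named only from probe sets annotated to a single gene (13513 of 22810, of which 13436 matched a locus), and 8730 probe sets without a named gene entered counts alone.

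A linear model with a mean for each group and empirical Bayes moderation was fitted to all 12 arrays in limma 3.58.1 (R 4.3.3), with a residual df of 8 and a prior df of 3.19. P-values were Benjamini-Hochberg adjusted over the 13567 probe sets with a log2 value of at least 4 on at least 3 arrays. The script was tested on simulated data. UGT78D1 and UGT78D2 were compared with each other by exact permutation tests on their within-array difference, in Python 3.11.15.

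The replicate numbers pair the arrays: per the series description each experiment held all 4 treatments, and after removal of group means all 18 pairs with the same number correlated positively (r 0.30 to 0.76). The planned fit has no replicate term, and the block was an alternative, as were median centring, a repeated quantile normalization, other filters, trended and robust moderation, a 25S ribosomal RNA covariate, fits of 2 groups alone and leaving out each array. Named genes were both flavonol genes, list members that could be tested (at most 6 per list by size of the light change), the UGT genes called for light (4 highest and 4 lowest) or wounding (4), and the 5 genes most like each flavonol gene. The genes, lists and tests were chosen with earlier results of these data known. Other UGT genes and untested list members are named after their values were seen. Sequences were not analysed here.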

Additional observations from a re-analysis of the deposited data

How the results depend on the processing

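The light calls of UGT78D1 held in intact and in wounded rosettes under all 9 alternatives of each and without any single array (changes of 1.81 to 2.15 and 1.22 to 1.77). Those of UGT78D2 held except with the 25S covariate in intact rosettes (0.98, limma adjusted p = 0.207) and without 2 arrays in wounded rosettes (changes of 1.26 to 1.66 and 1.02 to 1.44 over the arrays left out). With the replicate block UGT78D1 passed for wounding in the light (-0.58), and the unequal light change of both genes passed (0.36, labels exchanged within experiments). The latter took the intact and the wounded pair of an experiment as independent. With labels exchanged freely, as planned, the unequal light change ran from 0.19 to 0.53 without single arrays, with an exact permutation p of 0.09 to 0.525. The block changed no other call of these genes. Directions that no test called changed sign: for wounding in the dark UGT78D1 was 0.11 with the 25S covariate and ran from -0.38 to 0.17 without single arrays, and UGT78D2 from -0.32 to 0.14; the light dependence of the wound response was 0.22 for UGT78D2 with the covariate; the unequal wound change ran from -0.29 to 0.026; for light, DFR was -0.013 with arrays centred on their medians, with and without the block, and ran from -0.36 to 0.46 in intact and from -0.62 to 0.38 in wounded rosettes without single arrays, and BGLU15 from -0.57 to 0.34 in intact ones. The causes were not tested.

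Counts of called probe sets moved most. For wounding in the light 2015 became 3699 with the block and 3107 with block and centring (1336 to 2053 without single arrays); in the dark 1102 became 2043, 1980, 248 with the covariate and 587 in the 2 groups alone (663 to 1082). The averaged wound count of 2928 became 4906 with the block and 1893 with the covariate. For light in intact rosettes 3147 became 5516, 5176, 778 with the covariate and 2063 in the 2 groups alone (2144 to 3247), and in wounded rosettes 1666 became 3922 and 3795 (938 to 1801). The light dependence of the wound response gave 2, and 5 with the block, 7 with block and centring, 1 each with centring and with quantile normalization, and 0 by limma with the stricter filter, with trended and robust moderation and with the covariate, where 363, 462 and 376 probe sets had an unadjusted p under 0.05 (1 to 12 without single arrays). In the decoration list, recounted under settings chosen with the values in view, the number of 5 for light in intact rosettes became 3 with the covariate, and that of 3 in wounded rosettes became 5 with the block, also with centring. With 3 arrays a group, the wound changes of both genes are known only to within their intervals.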
